A study of Homo sapiens with 8 samples.

Results

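The 8 genes described here encode transcription factors that build or mark the kidney epithelium: PAX8, PAX2, HNF4A, LHX1, EMX2, WT1, MECOM and TFCP2L1. They were chosen by name, with earlier results of these data known, from 18693 protein-coding genes with a RefSeq messenger RNA row and a symbol in the deposited tables, and their values are the sums of such rows (32 rows for the 8 genes). RNA-seq was done on 8 libraries of A498 and 786-O, established human cell lines of clear cell renal cell carcinoma (ccRCC), each line giving 2 libraries with non-targeting control siRNA (NTC), 1 with SLINKY siRNA1 and 1 with SLINKY siRNA2. SLINKY is a long intergenic non-coding RNA, and the siRNAs were transfected with Lipofectamine at 50 nM for 16 h into 10000 cells per well. A498 was grown in DMEM and 786-O in RPMI-1640, so that cell line and medium cannot be told apart, and each line stands for 1 tumor. No source states that libraries of one group came from separate cultures, so the p-values measure only the spread between these libraries, which may be technical. In the knockdown groups siRNA1 and siRNA2 served as the 2 replicates, so that this spread also holds any difference between the 2 siRNAs. Library depth, estimated from the tables, was 25.1 M to 64.5 M mapped reads of 36 bp.

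The kidney tubule arises from 2 embryonic tissues that instruct each other, the nephron progenitor mesenchyme and the ureteric bud. PAX2 and PAX8 are paired-box factors needed for both tissues, LHX1 patterns the early nephron, EMX2 is needed in the ureteric bud, and WT1 acts in the progenitors and later only in podocytes. HNF4A drives the proximal tubule program, TFCP2L1 is a factor of the distal nephron and collecting duct, and MECOM is a zinc finger factor of the developing tubule. PAX8 stays on in most renal carcinomas and is a diagnostic marker of them.

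VIM and the simple epithelial keratins were abundant in both lines, whereas CA9 was low in A498 and near 0 in 786-O. VIM (vimentin) measured 2024 to 2111 FPKM in A498 and 2720 to 3039 in 786-O. KRT8 and KRT18 (simple epithelial keratins) measured 644 to 692 and 309 to 338 in A498, and 444 to 518 and 216 to 221 in 786-O. CA9, the surface carbonic anhydrase of ccRCC, stood at 0.293 to 0.559 FPKM in A498 and was listed at 0 in 3 of the 4 libraries of 786-O, with 0.0229 in the fourth. Of the ccRCC markers, 10 of 11 had a row and all 10 were tested, 8 being higher and 1 lower in A498, where 43.3% of all tested genes were higher and 38.1% lower by the same limma threshold (adjusted p under 0.05). The defining leukocyte genes PTPRC and CD3E were listed at 0 in every library. Of the 6 leukocyte genes 2 were tested, and both were higher in A498, where 43.3% of all tested genes were. PECAM1, VWF, CDH5 and KDR (endothelium) stayed under 0.1 FPKM, but TEK of the same list measured 0.0786 to 0.257 FPKM in A498 and at most 0.0121 in 786-O. CD68, often used for macrophages, reached 138 to 151 FPKM in A498 against 1.70 to 5.20 in 786-O, and AFP 5.83 to 6.48 against 0.853 to 0.929, while ALB stayed under 0.1 FPKM. COL1A1 was higher in A498, at 2.87 to 3.42 FPKM against 0.186 to 0.273, and LUM lower, at 0 to 0.0208 against 0.493 to 0.677, while COL1A2, DCN and PDGFRB stayed under 0.1 FPKM. Summed over each list, leukocyte markers ran from 138 to 151 FPKM in A498 and 1.87 to 5.39 in 786-O, endothelial from 0.111 to 0.302 and 0.0230 to 0.0549, fibroblast from 2.97 to 3.48 and 0.822 to 0.948, and hepatocyte from 5.96 to 6.58 and 0.871 to 0.960. The part of these genes in the results below was not tested. In bulk RNA, fewer cells that express a gene and less RNA per cell cannot be told apart.

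The mean levels of the 8 factors lay between percentiles 17.7 (EMX2) and 89.5 (PAX8) of the 18693 genes. PAX8 was the most abundant with a mean of 42.4 FPKM (a level corrected for transcript length and library size). LHX1 followed with 5.59 FPKM and WT1 with 4.41 FPKM over all libraries, the latter carried by 786-O. MECOM and PAX2 lay near each other with means of 1.42 and 1.39 FPKM, at percentiles 47.1 and 46.9. HNF4A averaged 0.162 FPKM, TFCP2L1 0.0481 and EMX2 0.0079. In A498 the order of levels was PAX8, LHX1, PAX2, MECOM, HNF4A, with TFCP2L1, WT1 and EMX2 under 0.1 FPKM. The ranges of neighbours in the first 5 did not overlap, but those of TFCP2L1 (0.0343 to 0.0526) and WT1 (0.0169 to 0.0509) did. In 786-O the order was PAX8, WT1, LHX1, MECOM, PAX2 and TFCP2L1, with neighbouring ranges apart, and HNF4A and EMX2 were each above 0 in 1 library. PAX2 and MECOM therefore stood in opposite order in the 2 lines, PAX2 being the higher in A498 and MECOM in 786-O.

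**Figure D1:**
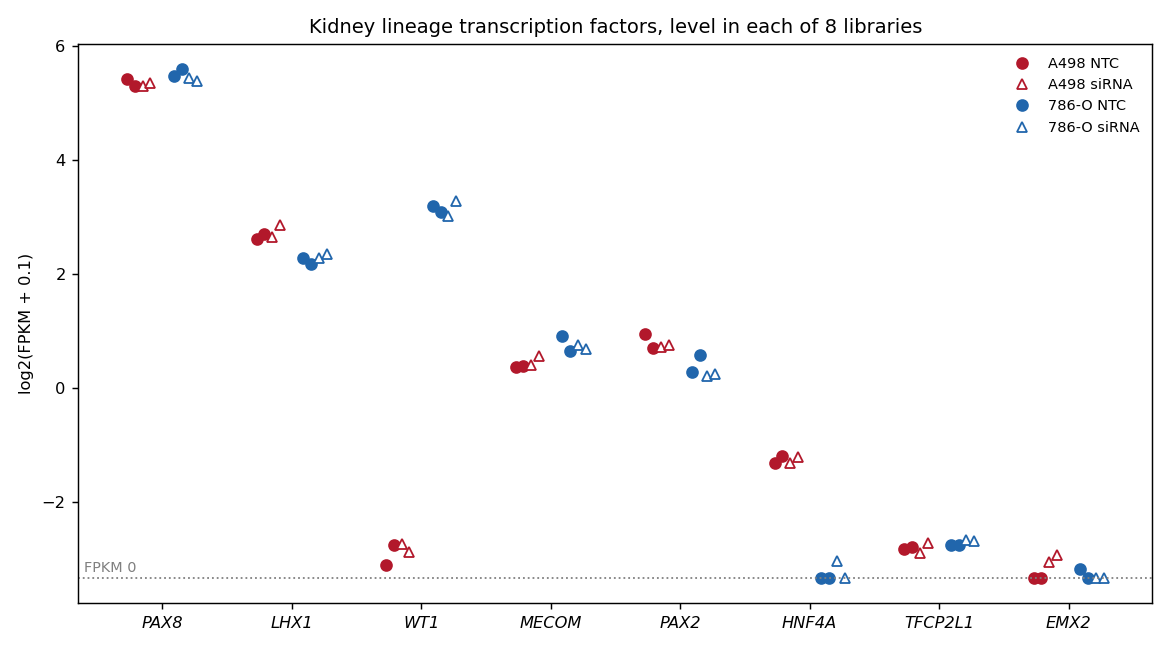
Level of each of the 8 factors (x axis, ordered by mean) as log2(FPKM + 0.1) (y axis) in every library, with A498 in red and 786-O in blue, NTC libraries as filled circles and siRNA libraries as open triangles. The dotted line marks a value of 0 FPKM. WT1 separates the lines most widely, at 8.01 to 9.67 FPKM in 786-O and at most 0.0509 in A498, while PAX8 overlaps between them.

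WT1 and HNF4A, the 2 factors that differed most between the lines, are each annotated with an upstream and a downstream start, and the deposited tables hold rows of both. The 250 bases before the outermost annotated exon at each start are shown because the values below are divided between rows of these starts. They were read 5′ to 3′ on the gene's strand from the hg19 genome, the build of the deposited rows. Capitals mark the letters GGGCGG (GC box) and GTTAAT (a run of letters bound by some homeodomain factors) found on either strand.

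WT1 upstream start (chr11:32457111-32457360, minus strand): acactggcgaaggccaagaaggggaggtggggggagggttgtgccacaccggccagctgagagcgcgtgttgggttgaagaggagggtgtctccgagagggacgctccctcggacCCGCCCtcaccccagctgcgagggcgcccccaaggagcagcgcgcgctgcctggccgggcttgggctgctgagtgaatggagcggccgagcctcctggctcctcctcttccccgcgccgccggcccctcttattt
WT1 downstream start (chr11:32452364-32452613, minus strand): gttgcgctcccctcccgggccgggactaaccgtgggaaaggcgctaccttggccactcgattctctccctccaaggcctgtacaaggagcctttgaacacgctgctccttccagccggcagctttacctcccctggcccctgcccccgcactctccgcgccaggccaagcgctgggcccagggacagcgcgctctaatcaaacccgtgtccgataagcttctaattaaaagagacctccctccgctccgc
HNF4A upstream start (chr20:42984089-42984338, plus strand): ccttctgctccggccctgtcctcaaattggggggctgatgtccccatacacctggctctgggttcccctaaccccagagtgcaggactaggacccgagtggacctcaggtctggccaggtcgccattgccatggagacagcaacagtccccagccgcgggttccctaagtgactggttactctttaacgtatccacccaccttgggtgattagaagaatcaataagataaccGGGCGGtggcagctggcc
HNF4A downstream start (chr20:43029629-43029878, plus strand): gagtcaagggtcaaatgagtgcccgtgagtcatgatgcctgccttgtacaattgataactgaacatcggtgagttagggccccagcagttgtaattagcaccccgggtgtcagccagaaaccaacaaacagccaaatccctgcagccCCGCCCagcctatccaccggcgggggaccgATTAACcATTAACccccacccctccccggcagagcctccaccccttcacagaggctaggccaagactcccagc

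The WT1 windows were the richer in G and C (70% upstream and 63.6% downstream) and in CpG dinucleotides (20 and 18), against medians of 58.0% and 11 CpG over 35116 RefSeq promoter windows of the same length (assembly GRCh38.p14). The HNF4A windows had 58.4% and 58.0% G and C and 8 CpG each. The downstream HNF4A window held GTTAAT 2 times, and none of the other windows held it. This motif was found in 6.23% of all promoter windows and the GC box in 42.6%. The upstream WT1 window lies within the GENCODE locus (chr11:32457064-32480315) of WT1-AS, the antisense RNA of WT1, which runs the other way from the same start region. A match of letters is a description of the window and not a binding site.

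PAX8 (chr2:113973574-114036498) was high in both lines. In A498 it measured 42.9 and 39.2 FPKM in the NTC libraries and 39.3 and 40.6 with siRNA1 and siRNA2. In 786-O the values were 44.3 and 48.1 with NTC and 43.2 and 41.9 with the siRNAs. The ranges overlapped, and the highest value was only 1.23 times the lowest of the 8. On the log2(FPKM + 0.1) scale PAX8 was lower in A498 by a difference of -0.13 ± 0.05 (SE, n = 4 libraries per line), with an adjusted p of 0.030 by limma across 12885 genes. The two-sided exact permutation test of the 4 against 4 libraries gave p = 0.0571, the smallest possible being 0.0286. The call was lost with several other settings, among them the single highest row of each gene (difference -0.01, adjusted p = 0.866) and the NTC libraries alone (difference -0.17, adjusted p = 0.0843). It was also lost when any 1 of 5 libraries was left out, A498 NTC 2, A498 siRNA1, A498 siRNA2, 786-O NTC 2 or 786-O siRNA1, with adjusted p of 0.0529 to 0.108. The sum was steadier than its division between isoforms: the row NM_003466 held 27.1 to 30.7 FPKM, but NM_013953 ran from 0.0592 to 7.48 and NM_013992 from 5.92 to 15.2.

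The call for PAX8 has to be read against the background, since the lines differed in most genes. Of 12885 genes tested, 10488 (81.4%) passed the adjusted threshold of 0.05 between the lines, 5574 (43.3%) higher and 4914 (38.1%) lower in A498, and in 76.6% of all genes the 4 libraries of one line lay wholly apart from the 4 of the other (A498 above in 40.7%, below in 35.9%). Of the 8 factors, 6 were tested and all 6 passed, 3 higher (PAX2, HNF4A, LHX1) and 3 lower (PAX8, WT1, MECOM) in A498. Their median log2 difference was 0.15, against 0.05 over all genes. HNF4A and WT1 passed the filter of a mean of 0.1 FPKM only through the line in which each was high, as did 10.3% of all tested genes, and therefore had to differ. Their differences are given as descriptions, without a p, and nothing is drawn from their calls. The same holds for PAX6, PAX9, SIX2, OSR1, POU3F3, FBP1, PLA2R1, MAGI2, AVPR2, SCNN1A, CA9 and LUM among the list genes named in the text. EMX2 and TFCP2L1 fell under the filter. As a description of size only, 95 genes (0.737%) differed by at least as much as WT1 on the same scale. For HNF4A the number was 1627 (12.6%). Both sizes depend on the pseudocount, and nothing is drawn from them.

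PAX2 (chr10:102505468-102589698), the close relative of PAX8, was higher in A498. Its values there were 1.84 and 1.52 FPKM with NTC and 1.54 and 1.59 with siRNA1 and siRNA2. In 786-O they were 1.12 and 1.40 with NTC and 1.06 and 1.08 with the siRNAs. The groups did not overlap, and the log2 difference was 0.45 ± 0.10 (SE, n = 4 per line, limma adjusted p = 0.00234), with an exact permutation p of 0.0286. The ratio of means was 1.39. PAX8 thus exceeded PAX2 by far in both lines on the FPKM scale.

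LHX1 (chr17:35294772-35301915), a LIM homeodomain factor with 1 row, was also higher in A498. The A498 libraries had 6.05 and 6.41 FPKM with NTC and 6.17 and 7.17 with the siRNAs. The 786-O libraries had 4.75 and 4.42 with NTC and 4.78 and 5.01 with the siRNAs. No library of A498 reached down to the highest of 786-O, and the log2 difference was 0.43 ± 0.07 (SE, n = 4 per line, limma adjusted p = 0.000304, exact permutation p = 0.0286). The row rested on 557 to 1037 reads per library, as implied by the width of its deposited confidence interval.

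MECOM (chr3:168801287-169381563) was higher in 786-O, although modestly. It measured 1.19, 1.21, 1.22 and 1.38 FPKM in A498 (NTC, NTC, siRNA1, siRNA2). In 786-O it measured 1.79, 1.48, 1.60 and 1.52 in the same order. The groups lay apart, with a log2 difference of -0.33 ± 0.09 (SE, n = 4 per line, limma adjusted p = 0.00715, exact permutation p = 0.0286). Rows that start at the upstream start held 10.9% to 38.0% of the MECOM value in A498 and 0% to 8.93% in 786-O. In both lines the 2 siRNA libraries had the larger upstream share. It was 25.04% and 38.0% against 12.4% and 10.9% with NTC in A498, and 8.93% and 7.77% against 2.04% and 0% in 786-O. The upstream row with the A498 NTC values implied only 1.28 and 2.09 reads, with deposited intervals that reach 0. The shares describe rows that share reads, with no test, and nothing is drawn from them.

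WT1 (chr11:32409322-32457081), the zinc finger factor of nephron progenitors and podocytes, was on in one line and near the limit of detection in the other. In 786-O it measured 9.02 and 8.44 FPKM with NTC and 8.01 and 9.67 with siRNA1 and siRNA2. In A498 it measured 0.0169 and 0.0490 with NTC and 0.0509 and 0.0358 with the siRNAs. The means were 8.78 ± 0.719 and 0.0381 ± 0.0157 FPKM (SD, n = 4 each), a ratio of 230. The A498 values rested on 2, 4, 4 and 2 implied reads in that order, 12 reads in all with an exact Poisson 95% interval of 6.20 to 21.0, which puts the ratio between 132 and 446 from counting error in A498 alone. The log2 difference of -6.01 ± 0.11 (SE, n = 4 per line) depends on the pseudocount and is smaller than the ratio.

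Of the WT1 value in 786-O, 85.8% to 92.5% stood on the 2 rows that begin at the downstream start and 7.55% to 14.2% on the 3 rows of the upstream start, whose flanking sequences are printed above. All A498 reads were assigned to rows of the downstream start. WT1-AS, read from its GENCODE row (chr11:32457064-32480315), followed the same split between lines. It had 1.14, 1.10, 2.02 and 1.38 FPKM in 786-O and at most 0.0219 in A498. The library kit does not mark strand, so that reads of WT1 and WT1-AS cannot be told apart where the 2 overlap.

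HNF4A (chr20:42984441-43061485), the nuclear receptor of proximal tubule and liver, was found in A498 at a low level. The values were 0.302 and 0.341 FPKM with NTC and 0.304 and 0.331 with the siRNAs. In 786-O it was listed at 0 in both NTC libraries and with siRNA2, and at 0.0219 with siRNA1. The lines did not overlap, and the log2 difference was 2.0 ± 0.12 (SE, n = 4 per line), a value set by the pseudocount. With a pseudocount of 0.01 FPKM it was 4.62 and with 1 FPKM 0.39. The rows of the 2 starts exchanged places between libraries: in A498 the upstream start held 65.1% and 100% of the value in the NTC libraries, close to 0 with siRNA1 and 100% with siRNA2. Only the sum over rows is therefore used, and no start is assigned to the line. HNF4A-AS1 stayed under 0.01 FPKM in all 8 libraries.

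**Figure D2:**
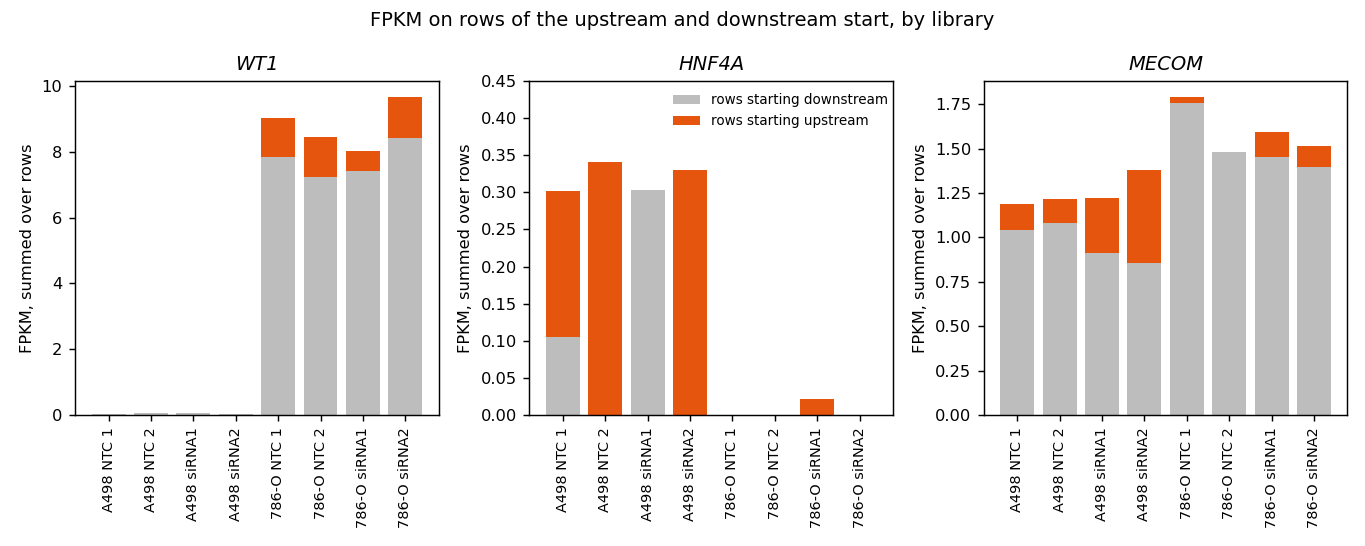
FPKM summed over the rows that begin at the upstream start (orange) and at the downstream start (grey) of WT1, HNF4A and MECOM (y axis, linear from 0, scaled per gene) in each library (x axis). WT1 is seen in 786-O alone at this scale, mostly on rows of the downstream start, whereas the HNF4A rows trade places between A498 libraries.

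TFCP2L1 and EMX2 were at the edge of detection. TFCP2L1 (chr2:121974164-122042778) measured 0.0414, 0.0450, 0.0343 and 0.0526 FPKM in A498 and 0.0485, 0.0493, 0.0572 and 0.0561 in 786-O. It rested on 11 to 20 reads per A498 library and 16 to 29 per 786-O library, and the ranges overlapped (exact permutation p = 0.0857). EMX2 (chr10:119301956-119309057) was listed at 0 in both A498 NTC libraries and at 0.0209 and 0.0317 with the siRNAs. In 786-O it was 0.0105 in 1 NTC library and listed at 0 in the other 3. Every EMX2 value was under the level that 3 reads would give in its library (0.0185 to 0.0476 FPKM), and fell under the filter. When fitted without that filter, it had a line difference of 0.13 (limma adjusted p = 0.0491) and a knockdown difference in A498 of 0.34 (unadjusted p = 0.00293, limma adjusted p = 0.369), both from values under that level. Its antisense neighbour EMX2OS also stayed under 0.01 FPKM. PAX8-AS1, whose locus overlaps PAX8, was present at 0.657 to 1.63 FPKM in A498 and 0.345 to 0.709 in 786-O on its GENCODE row, with overlapping ranges.

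The other PAX genes and the partners of the 8 factors were read from lists. Of 7 further PAX genes, 6 had a row, and PAX1, PAX3, PAX5 and PAX7 stayed under 0.1 FPKM in every library. PAX9, a factor of pharyngeal pouch and skeleton, was higher in A498 (0.596 to 0.692 against 0.00948 to 0.0565 FPKM, log2 difference 2.48). PAX6, the eye and pancreas factor, was higher in 786-O (0.649 to 0.805 against 0.0723 to 0.111 FPKM in A498, log2 difference -2.11). Each line thus expressed 1 of these genes more strongly than the other line, well below PAX8. Of 14 paralogs and partners, 9 were tested, 5 higher and 3 lower in A498, with a median log2 difference of 0.17. TFCP2, a ubiquitous relative of TFCP2L1, was higher in A498 (4.78 to 5.51 against 1.20 to 1.45 FPKM, log2 difference 1.92), and UBP1, of the same family, lower (9.70 to 11.01 against 16.8 to 19.2, log2 difference -0.76). WTIP, a partner of WT1, was higher in A498 (0.417 to 0.649 against 0.202 to 0.451 FPKM, log2 difference 0.76, limma adjusted p = 0.00723), with ranges that overlapped.

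Regulators of the nephron progenitor mesenchyme moved both ways. Of 17 listed genes 12 were tested, 6 being higher and 4 lower in A498, and their median log2 difference was 0.31. SIX2, which keeps nephron progenitors undifferentiated, measured 1.33 to 1.39 FPKM in A498 and was listed at 0 in 3 libraries of 786-O, with 0.0140 in the fourth (log2 difference 3.82). OSR1, the earliest factor of the intermediate mesoderm, measured 1.36 to 1.91 against 0.0325 to 0.0879 FPKM (log2 difference 3.38). HOXA11, a patterning gene of the same mesenchyme, measured 17.9 to 19.7 against 3.91 to 4.60 (log2 difference 2.12). These 3 progenitor genes were higher in the line where WT1 was near the limit of detection.

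Of 18 ureteric, distal and collecting duct regulators, 11 were tested, 7 higher and 4 lower in A498 (median log2 difference 1.40). POU3F3, a POU factor of the loop of Henle and distal tubule, was higher in A498 (1.67 to 2.35 against 0 to 0.0792 FPKM, log2 difference 4.05), as was TFAP2A, an AP-2 factor (2.96 to 3.49 against 0.214 to 0.373, log2 difference 3.05). WNT7B, a ureteric ligand needed for the medulla, was higher in 786-O (5.26 to 7.61 against 0.320 to 0.558 FPKM in A498, log2 difference -3.63). Over the 4 regulator lists, 34 of 56 genes were tested, 19 being higher and 12 lower in A498. Over all genes 43.3% were higher and 38.1% lower. The 2 tested PAX genes, 2 of the 12 progenitor regulators and 2 of the 11 ureteric list genes had passed the filter only through 1 line. Among all tested genes that share was 10.3%, and nothing is drawn from such calls.

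**Figure D3:**
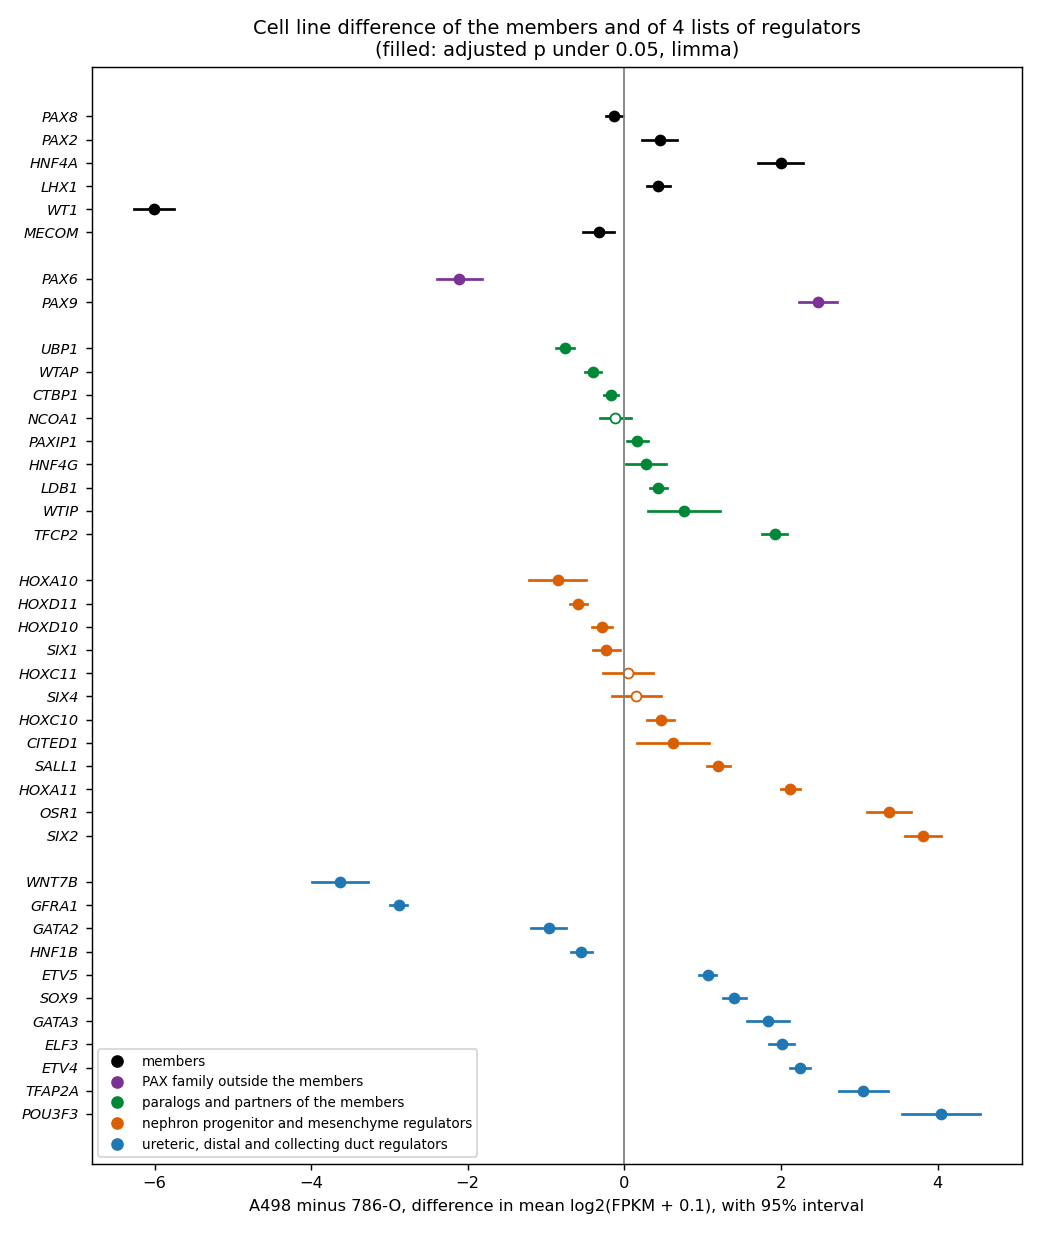
Difference between A498 and 786-O in mean log2(FPKM + 0.1) (x axis) with its 95% interval for the tested members and for the tested genes of 4 lists (y axis, grouped by color); filled points passed an adjusted p of 0.05 by limma. The value of -6.01 for WT1 lies outside the range of all listed regulators, whose extremes are 4.05 for POU3F3 and -3.63 for WNT7B. WT1, HNF4A and POU3F3 are among the filled genes that passed the filter only through 1 line, and nothing is drawn from their fill.

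Markers of differentiated nephron segments were mostly low. Of 20 proximal tubule genes, 9 stayed under 0.1 FPKM in every library, among them the endocytic receptors LRP2 and CUBN and the organic anion transporter SLC22A6. Of the 10 tested, 5 were higher and 1 was lower in A498, with a median log2 difference of 0.59, beside 43.3% higher and 38.1% lower and a median of 0.05 over all genes, and 2 of the 10 had passed the filter only through A498. ANPEP, a brush border peptidase, measured 130.3 to 144 FPKM in A498 against 4.76 to 5.54 in 786-O (log2 difference 4.74, limma adjusted p = 2.7e-10). FBP1, the gluconeogenic bisphosphatase, measured 0.127 to 0.278 FPKM in A498 and was listed at 0 in all 4 libraries of 786-O. Of 11 genes known to depend on HNF4A in liver or tubule, 7 stayed under 0.1 FPKM everywhere and only 2 were tested (median log2 difference -1.90). Of the 2 that were neither, MTTP, which loads lipid onto lipoproteins, measured 0.0687 to 0.147 FPKM in A498 and 0 to 0.0212 in 786-O, without overlap, and APOA1, an apolipoprotein, 0.0388 to 0.115 and 0 to 0.0408, with overlap. SERPINA1, the antitrypsin gene, was lower in A498, unlike HNF4A itself, at 43.1 to 48.5 FPKM in 786-O against 3.78 to 4.25 in A498 (log2 difference -3.43, limma adjusted p = 5.8e-10), and APOM did not pass (log2 difference -0.37, limma adjusted p = 0.0634).

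Of 13 podocyte genes, 4 stayed under 0.1 FPKM in all libraries, TCF21 and CLIC5 among them, also in 786-O, where WT1 was high. Others were present in both lines: SYNPO measured 23.8 to 29.4 FPKM in 786-O and 21.6 to 24.4 in A498, and was left out of tests. CD2AP measured 8.61 to 9.87 FPKM in 786-O and 5.20 to 6.31 in A498. PODXL measured 1.99 to 3.22 FPKM in 786-O and 3.70 to 5.40 in A498. NPHS1 was listed at 0 in the 4 libraries of 786-O and measured 0.0876 to 0.124 FPKM in A498. Of the 5 podocyte genes tested, 4 were higher and 1 was lower in A498 (median log2 difference 0.69), against the same 43.3% and 38.1%, and 2 of the 5 had passed the filter only through A498. The largest differences were those of PLA2R1, a phospholipase receptor (0.626 to 0.689 against 0.0471 to 0.122 FPKM, log2 difference 1.99), MAGI2, a scaffold protein (0.212 to 0.334 against 0.00504 to 0.0187, log2 difference 1.66), and FOXC2 (1.15 to 1.41 against 0.533 to 0.899, log2 difference 0.69). Of 16 genes of the loop of Henle, distal tubule and collecting duct, 9 stayed under 0.1 FPKM, UMOD, SLC12A1 and AQP2 included, and all 5 tested were higher in A498 (median log2 difference 2.38, 43.3% of all genes being higher), of which 2 had passed the filter only through A498. KRT7, a duct keratin, measured 5.16 to 6.41 against 0.354 to 0.638 FPKM (log2 difference 3.48). AVPR2, the vasopressin receptor, measured 0.412 to 0.715 FPKM in A498 and at most 6.61e-05 in 786-O. SCNN1A, a sodium channel subunit, measured 0.791 to 1.15 against 0.0638 to 0.119 FPKM (log2 difference 2.38).

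**Figure D4:**
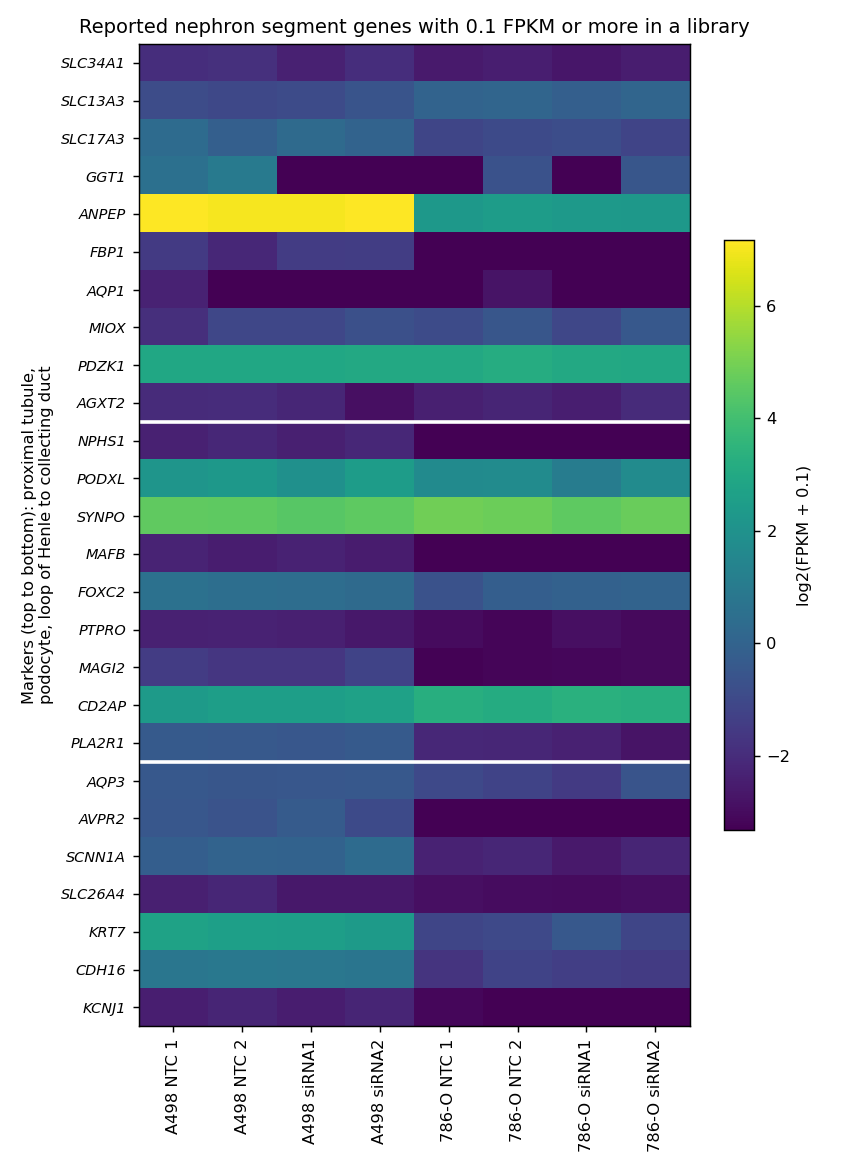
Heat map of log2(FPKM + 0.1) (color) for the reported nephron segment genes (rows; 10 of proximal tubule, 9 of podocyte, 7 of loop of Henle to collecting duct) that reached 0.1 FPKM in a library (columns). ANPEP is the brightest row, in A498 at 130.3 to 144 FPKM, and FBP1 is at 0 throughout 786-O.

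For the 5 factors with a mean of at least 1 FPKM, the genes with the most similar profile over the 8 libraries were sought by the root mean square difference of centred log2(FPKM + 0.1). For WT1 these were BTG3 (0.482 FPKM on average in A498 and 36.9 in 786-O, distance 0.0816) and SLC35G2 (0.0021 and 7.51, distance 0.159). For PAX8 they were RPS6KA1 (distance 0.0265) and ARHGEF16 (0.0296), for PAX2 WDR24 (0.0596) and TMEM63B (0.0607), for LHX1 WDR26 (0.0370) and PPM1H (0.0379), and for MECOM ELK4 (0.0313) and TULP4 (0.0502). The distances describe the libraries and are given without a test.

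To ask whether the factors responded to the lincRNA, the knockdown libraries were compared with NTC within each line, the 2 siRNAs being taken as replicates. SLINKY itself (row chr7:106415457-106436010) fell from 14.6 and 16.1 FPKM with NTC to 1.64 and 3.01 with siRNA1 and siRNA2 in A498, that is, 89.3% and 80.3% below the NTC mean. In 786-O it went from 1.45 and 1.39 to 0.0569 and 0.594, 96.0% and 58.2% below. SLINKY was thus below both NTC libraries with each siRNA, the least with siRNA2 in 786-O. The deposited intervals imply 10.96 and 17.9 reads behind the 786-O NTC values, 40.9 with siRNA1 and 5.72 with siRNA2, so that the lowest level stands beside the most implied reads and the size of the fall in 786-O is uncertain.

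None of the 6 tested factors passed for knockdown in A498, in 786-O or over both lines by limma. In A498 the log2 differences of knockdown from NTC ran from -0.09 (PAX2) to 0.12 (WT1), with adjusted p of at least 0.846. In 786-O they ran from -0.21 (PAX2) to 0.14 (HNF4A), with adjusted p of at least 0.993, and the mean over the lines ran from -0.15 (PAX2) to 0.09 (LHX1), with adjusted p of at least 0.611. None of these 6 had an unadjusted p under 0.05 in any of these comparisons. At the adjusted threshold the background was nearly empty too: 1 gene of 12885 (0.00776%) passed in A498, 0 (0.0%) in 786-O and 0 (0.0%) over both lines. The gene in A498 was MAPK8, named here after its values were seen. With other settings these counts ran from 0 to 24 genes. At an unadjusted limma p under 0.05 the background was not empty, with 775, 598 and 1200 of the 12885 genes in the same order. None of the tested genes of the 13 lists passed for knockdown in either line.

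The intervals show what the libraries could resolve. For PAX8 the 95% interval of the knockdown difference was -0.19 to 0.12 in A498 and -0.27 to 0.04 in 786-O on the log2 scale, and over both lines -0.19 to 0.03. For LHX1 it was -0.06 to 0.24 over both lines, for PAX2 -0.37 to 0.07, for MECOM -0.18 to 0.22, for WT1 -0.19 to 0.32 and for HNF4A, the widest, -0.22 to 0.35. PAX8 was below both NTC libraries with each siRNA in 786-O (43.2 and 41.9 against 44.3 and 48.1), and so was PAX2 (1.06 and 1.08 against 1.12 and 1.40). LHX1 was above both NTC libraries with each siRNA in 786-O (4.78 and 5.01 against 4.75 and 4.42). In A498, MECOM was above both (1.22 and 1.38 against 1.19 and 1.21). How many of all tested genes lay apart in this way was not counted, and nothing is drawn from it. With 2 libraries against 2 an exact permutation test cannot go below p = 0.333. The difference of the knockdown effect between the lines did not pass for any factor (limma adjusted p of at least 0.9998, log2 differences of -0.16 to 0.17).

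At a log2 shift of 0.32 in either direction, the fold threshold used in the study, no tested factor passed with either siRNA in either line. The largest shifts of (FPKM + 0.1) were a log2 difference of 0.29 for HNF4A with siRNA1 in 786-O, from rows listed at 0, and of -0.23 for PAX2 with the same siRNA. The share of all tested genes past that shift was 7.54% and 10.1% with siRNA1 and siRNA2 in A498 and 9.63% and 7.02% in 786-O. These shares compare 1 library with the mean of 2. Between the 2 single NTC libraries, 1111 genes (8.62%) in A498 and 1102 (8.55%) in 786-O were past it. Against a single NTC library in the same way, siRNA1 and siRNA2 gave 1160 to 1374 and 1279 to 1999 genes in A498, and 1396 to 1480 and 1098 to 1284 in 786-O.

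**Figure D5:**
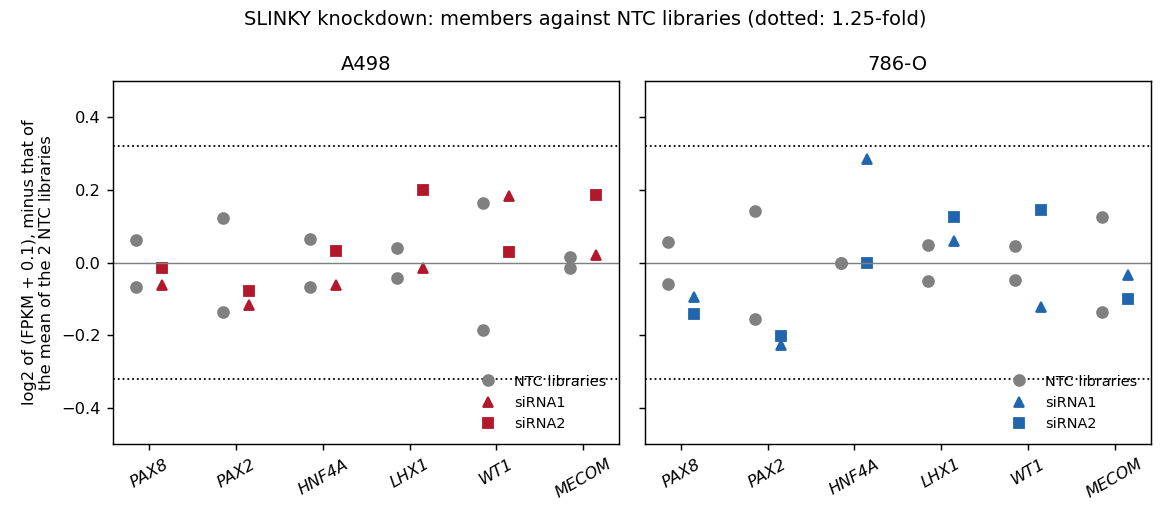
Shift of each tested factor (x axis) from the mean of the 2 NTC libraries of its line, on the log2(FPKM + 0.1) scale (y axis), for the NTC libraries (grey circles), siRNA1 (triangles) and siRNA2 (squares) in A498 (left) and 786-O (right). All points lie within the dotted lines at a log2 shift of 0.32, the extremes being 0.29 for HNF4A and -0.23 for PAX2 in 786-O.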

How the data were processed

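The authors mapped single-end 36 bp reads of unstranded TruSeq libraries to hg19 and deposited FPKM values per transcript row from Cufflinks, each library on its own (TopHat2 2.0.0 and Cufflinks 2.0.2 per the submitters' processing notes). Groups were taken from the sample labels, 2 libraries in each of 4 groups, with siRNA1 and siRNA2 as the 2 libraries of each knockdown group. Of 75378 rows per library, the 35951 RefSeq messenger RNA rows were given symbols (97.7% matched, GRCh38.p14 table used for names only), and FPKM was summed per symbol. The 285 genes with a row marked as failed were left out of tests, and so were genes with a mean under 0.1 FPKM. FPKM values are not counts, so log2(FPKM + 0.1) was fitted by limma 3.58.1 (R 4.3.3) with an intensity trend, 4 groups and 4 residual degrees of freedom, and p-values were adjusted by Benjamini-Hochberg across 12885 genes. Reads were implied from the deposited 95% interval, which gave whole numbers within 0.01 in 41.4% of positive rows, and depth was estimated from them. Intervals on reads cover counting error only.

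In simulated data with 200 genes changed 2-fold, the fit recovered 186 between the lines (6 false calls) and 164 for knockdown in A498 (11 false calls) among 12885 genes. Smaller changes were not simulated, so this does not show what the fit would recover at the size of the knockdown differences above. The members and lists were chosen with earlier results of these data known. All members are named, and from each list the 3 genes with the largest differences between the lines among those that passed, except that some list genes are counted but not reported here by name. Sequences are of hg19 and, for the promoter background, of RefSeq. The log2 fold on a pseudocount understates the change of low genes. Alternatives were other pseudocounts, filters, scaling, row choices, variance models, a replicate block and leaving out each library.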

Additional observations from a re-analysis of the deposited data

Results flagged for a closer look

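WT1-AS was flagged because its GENCODE row lies outside the RefSeq messenger RNA rows used for the comparisons and stood above the controls in the knockdown libraries of 786-O. It had 2.02 and 1.38 FPKM with siRNA1 and siRNA2, a mean of 1.70, against 1.14 and 1.10 with NTC. The deposited 95% intervals overlap, at 0.902 to 3.13 and 0.576 to 2.19 against 0.331 to 1.94 and 0.534 to 1.67 FPKM, and imply 13.1 and 11.7 reads against 7.95 and 15.1. The difference was not tested, and WT1 itself did not move with it, at 8.01 and 9.67 FPKM against 9.02 and 8.44. The row shares its start region with WT1 in a library type that does not mark strand.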

How the results depend on the processing

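For the 6 tested factors, 104 of the 113 alternative values of the line difference kept direction and side of the threshold. The 9 others were all of PAX8, which lost its call with the highest row of a gene (log2 difference -0.011, adjusted p = 0.866), without a variance trend (-0.13, adjusted p = 0.0617), with the replicate block (-0.13, adjusted p = 0.0503), with NTC libraries only (-0.17, adjusted p = 0.0843), and without each of 5 libraries, its log2 difference running from -0.16 to -0.10 as single libraries were left out. PAX2, LHX1 and MECOM kept their calls under every alternative that gave a value. So did HNF4A, WT1 and the 29 list genes that the naming rule picked (538 values), but for HNF4A, WT1 and the list genes that passed the filter through 1 line this shows nothing. No factor passed for knockdown under any alternative. Without a filter on low values, EMX2 had a line difference of 0.13 (limma adjusted p = 0.0491, past the threshold, from values under the level of 3 reads) and TFCP2L1 one of -0.09 (adjusted p = 0.150). With the replicate block 10584 genes passed between the lines, against 10488. Libraries of the same number did not deviate together (r of -0.087 to 0.087 between groups over 12885 genes), so the numbers did not pair them, and numbers 1 and 2 of the knockdown libraries are siRNA1 and siRNA2.

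Counts of genes called for knockdown were unstable, and the cause was not tested. In A498 (1 gene) there were 0 with a pseudocount of 1 FPKM, 2 with a mean of at least 1 FPKM, 5 without a filter, 18 with NM and NR rows, 3 with the replicate block and 5 with the libraries of A498 only. In 786-O (0 genes) there were 5 with a pseudocount of 0.01 FPKM, 2 without a filter and 11 with NM and NR rows. Over the lines (0 genes) there were 2, 4 and 24 with the same settings and 1 with a mean of at least 1 FPKM. For the difference between the lines (1 gene) there were 3, 4 and 27, and 0 with a pseudocount of 1 FPKM, without a variance trend and with the replicate block. With single libraries left out, the lone library of a group being assumed to vary like the other groups, the counts ran from 0 to 16 in A498 (16 without siRNA1, 6 without NTC 1, 4 without siRNA2, 3 without either siRNA library of 786-O, 0 without NTC 2), 0 to 5 in 786-O (5 without NTC 2 or siRNA1, 4 without siRNA2, 2 without NTC 1), 0 to 8 over the lines (8 without siRNA2 of 786-O, 4 without NTC 1 of A498) and 0 to 9 for the difference (9 without siRNA1 of A498).

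The counts past a log2 shift of 0.32 for siRNA1 and siRNA2 of A498 (971 and 1303) and of 786-O (1241 and 905) became 272, 409, 351 and 208 with a pseudocount of 1 FPKM and 387, 559, 605 and 394 with a mean of at least 1 FPKM. Without a filter they were 1639 and 2147 in A498, and with a pseudocount of 0.01 FPKM 1886 and 1556 in 786-O. Against a single NTC library they ran from 1160 to 1374 and 1279 to 1999 in A498 (1999 for siRNA2 without NTC 2), and from 1396 to 1480 and 1098 to 1284 in 786-O.

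Small knockdown differences changed sign with the highest row of a gene: PAX2 (0.11), HNF4A (0.11) and MECOM (-0.061) in A498, MECOM over the lines (-0.30), and PAX8 (-0.015), HNF4A (0.022) and WT1 (-0.069) for the difference between the lines. WT1 in 786-O was -0.0026 with median-ratio scaling. Leaving out single libraries turned signs in A498, with ranges of PAX8 -0.10 to 0.027, PAX2 -0.22 to 0.037, HNF4A -0.079 to 0.053, LHX1 -0.013 to 0.20 and WT1 -0.059 to 0.29. Leaving out single libraries did so also in 786-O, with ranges of WT1 -0.12 to 0.15 and MECOM -0.19 to 0.068. Leaving out single libraries did so also over the lines, with ranges of HNF4A -0.0067 to 0.14, WT1 -0.023 to 0.15 and MECOM -0.045 to 0.086. Leaving out single libraries did so also for the difference between the lines, with ranges of PAX2 -0.034 to 0.26, LHX1 -0.11 to 0.11 and WT1 -0.071 to 0.28. None of these values passed the threshold.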
